A study of Mus musculus with 4 samples.

Results

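The endoplasmic reticulum and integrated stress response was followed here through 41 genes. They comprise Atf4, 15 target genes of the transcription factor ATF4, 5 stress sensors and factors of the unfolded protein response, 14 chaperones and folding enzymes of the endoplasmic reticulum (ER), and 6 genes of ER-associated degradation (ERAD) and translocation. Members were the probes whose gene name on the array was one of these 41, which gave 77 of 56605 probes and 41 of 37074 genes. All 41 were well above background on all 4 arrays, so none was lost to the filter on dim probes.

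RNA came from epithelium scraped mechanically from the jejunum or the ileum of mice aged 9 weeks on the C57BL/6J background. The 4 groups were G181R jejunum, wild-type jejunum, G181R ileum and wild-type ileum, where G181R stands for DAOG181R/G181R and wild-type for DAOwt/wt. DAO is D-amino acid oxidase, which breaks down D-amino acids, and the G181R change is known to remove most of its activity. Every mouse was also Tcrbd-/-, so T cells with a receptor were missing in both genotypes, and the labels give both alleles as genotypes of the whole mouse. RNA of 5 mice was pooled for each group and hybridised to 1 array, so no value has a replicate, no p-value was computed, and every difference is one between 2 pools. The pools do not show how much single mice differed.

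Between 57.4% and 60.4% of probes were well above background on an array. Replicate spots of 295 probes gave a spread (SD) of 0.0560 to 0.0579 for a log2 difference between arrays, which covers spots of the same hybridisation and not mice, and no member probe was printed more than once. All 11 enterocyte markers were well above background on every array. Their summed signal, as a multiple of the array's 75th percentile, was 3413 in G181R and 3838 in wild-type jejunum, and 1349 in G181R and 1517 in wild-type ileum. Smooth muscle markers summed to 54.8 in G181R and 50.1 in wild-type jejunum, but to 42.5 in G181R and 102.6 in wild-type ileum. Dao itself differed by -0.11 in jejunum and -0.04 in ileum (log2, G181R minus wild-type), which does not check the genotype because the allele changes an amino acid and not the amount of mRNA.

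The unfolded protein response begins with 3 kinds of sensor in the ER membrane. IRE1 (Ern1, and Ern2 in gut epithelium) splices the mRNA of Xbp1, ATF6 is cut to release a transcription factor, and PERK (Eif2ak3) phosphorylates the translation factor eIF2. XBP1 and ATF6 induce chaperones and degradation factors that act on misfolded proteins in the ER. Phosphorylated eIF2 lowers protein synthesis while it favours translation of Atf4 mRNA, and other kinases that sense a lack of amino acids, double-stranded RNA or a lack of heme converge on the same step, which is why that branch is called integrated. ATF4 then induces genes for amino acid synthesis and uptake, tRNA charging and feedback on the response. Much of the control of ATF4 is translational, and the splicing of Xbp1 and the cutting of ATF6 are not read by a probe that measures total mRNA.

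The 2 arms differ in their promoter elements, which are shown here because the results turn on how far the 2 sets of targets differ between genotypes. Windows from 250 bases before to 50 after each annotated start were taken from RefSeq (GRCm38.p6) and matched 36 of the 41 members by symbol. Atf6, Ern2, Hyou1, Manf and Wars had no window in the table. The C/EBP-ATF response element (CARE) of ATF4 targets was searched as TGATGNAA, the ER stress response element (ERSE) of chaperones as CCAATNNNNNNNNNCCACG and the unfolded protein response element (UPRE) as TGACGTGG, each on both strands. The CCACG end of ERSE reads CGTGG on the other strand, which is also the end of UPRE. Of all 32851 windows, 3.97% held CARE, 0.119% held ERSE and 0.676% held UPRE. CARE was found for 7 of the 14 ATF4 targets with a window (Aars, Asns, Atf3, Chac1, Gars, Nupr1 and Trib3), for 0 of 12 chaperones, and for Herpud1 among the ERAD genes. ERSE was found for 7 of 12 chaperones (Calr, Canx, Creld2, Dnajc3, Hsp90b1, Hspa5 and Pdia6), for Derl3 and Syvn1 among the ERAD genes, and for 0 of 14 ATF4 targets. UPRE letters were found in no member's window. The stretches below, on the strand of the gene, carry CARE in capitals, as written or as its reverse complement, in 3 ATF4 targets that were higher in G181R in both tissues, in one that was lower (Atf3) and in Herpud1.
Chac1, chr2:119351039-119351066, plus strand: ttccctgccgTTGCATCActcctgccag
Asns, chr6:7693215-7693242, minus strand: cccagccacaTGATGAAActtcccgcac
Gars, chr6:55037961-55037988, plus strand: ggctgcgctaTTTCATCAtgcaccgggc
Atf3, chr1:191183426-191183453, minus strand: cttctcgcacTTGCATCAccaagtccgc
Herpud1, chr8:94386307-94386334, plus strand: ccacggcgggTTGCATCAgcccgcaccc
The next stretches carry both fixed parts of ERSE in capitals, with the spacer in lower case, in 4 chaperones and in Derl3.
Hspa5, chr2:34772015-34772053, plus strand: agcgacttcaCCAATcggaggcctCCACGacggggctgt
Creld2, chr15:88819510-88819548, plus strand: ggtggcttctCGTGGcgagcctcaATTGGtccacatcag
Pdia6, chr12:17266481-17266519, plus strand: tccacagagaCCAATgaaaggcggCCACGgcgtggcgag
Calr, chr8:84847065-84847103, minus strand: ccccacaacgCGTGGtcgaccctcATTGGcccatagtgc
Derl3, chr10:75893232-75893270, plus strand: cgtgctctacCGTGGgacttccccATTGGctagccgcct
These matches are descriptions of letters and not of bound sites.

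**Figure D1:**
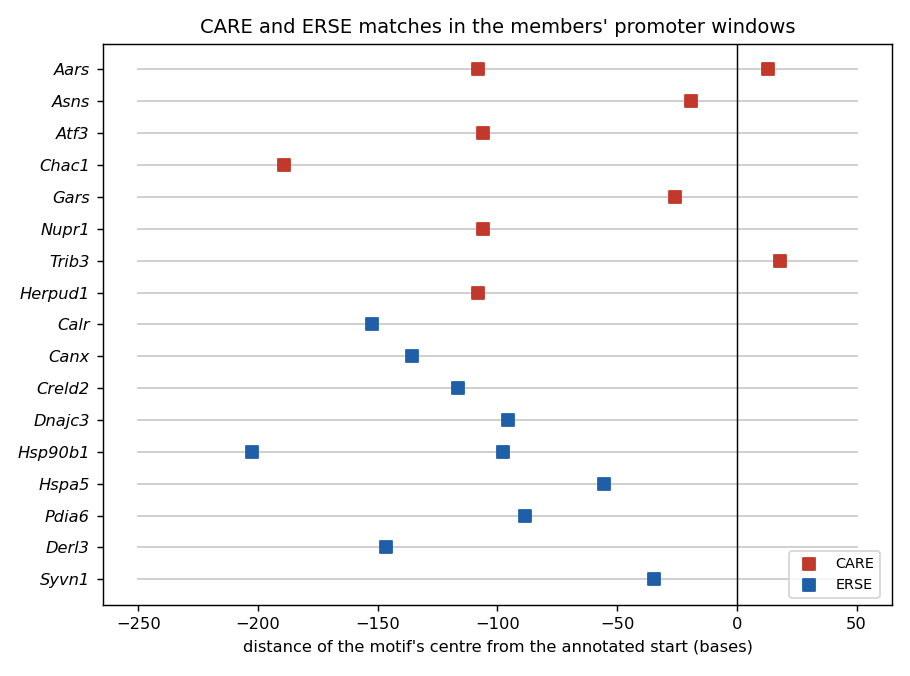
Distance in bases of the centre of each CARE (red) or ERSE (blue) match from the annotated start, for the 17 members with a match; grey lines show the searched window of 250 bases before to 50 after the start. All ERSE matches lie before the start, whereas the match of Trib3 and 1 of the 2 matches of Aars lie after it.

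In both tissues most of these genes were higher in G181R than in wild-type epithelium, and the differences were mostly small. In jejunum 31 of 41 members were higher and 10 lower, with a median log2 difference of 0.26. In ileum 29 were higher and 12 lower, with a median of 0.36. Among all measured genes, 48.4% were higher in jejunum (median -0.01) and 53.3% in ileum (median 0.03). Chac1 and Asns, both ATF4 targets, were at least 2-fold higher in both tissues, and Atf5, another target, was so in ileum. No member was at least 2-fold lower in either tissue.

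These counts of 2 in jejunum and 3 in ileum stand beside a background of 0.763% of 21225 measured genes at least 2-fold higher in jejunum and 2.01% of 21477 in ileum. At least 2-fold lower were 0.749% of genes in jejunum and 3.21% in ileum, against 0 of 41 members each time. At 1.5-fold, 3 members were higher and 2 lower in jejunum, where 3.4% and 4.09% of measured genes were, and 14 were higher and 0 lower in ileum, where 6.81% and 8.65% were. All differences are of the log2 processed signal after subtraction of each array's 75th percentile, taken at the brightest probe of a gene, and the signals given below are before that subtraction, in the arbitrary units of the scanner. Fewer cells of a type and less RNA per cell cannot be told apart in such bulk samples. The differences of Sesn2, Ern2, Dnajb9 and Sec61b in jejunum and of Ppp1r15a, Ern2, Dnajb9, Sel1l and Syvn1 in ileum were no larger than the spot SD.

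**Figure D2:**
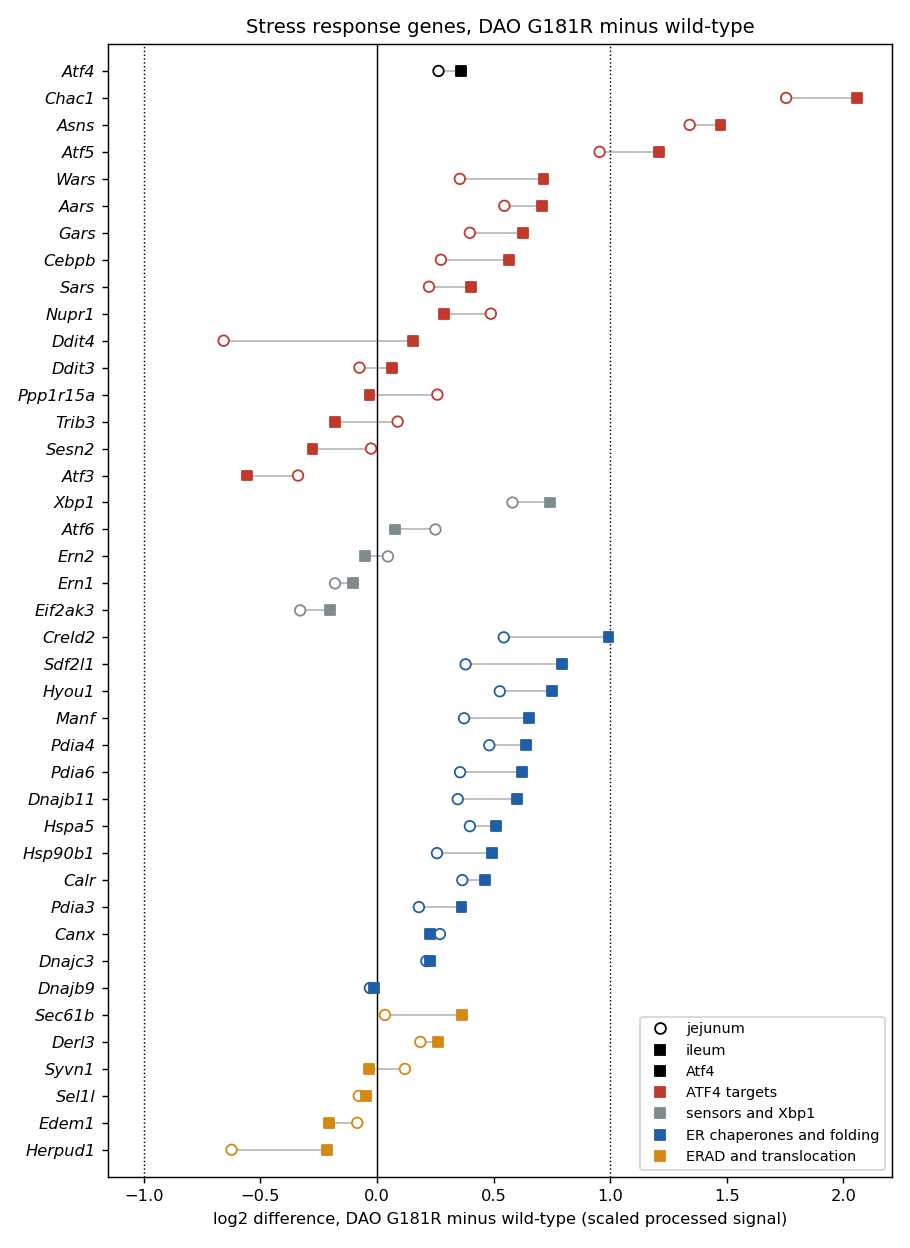
Log2 difference in scaled processed signal, G181R minus wild-type, of each of the 41 genes in jejunum (open circles) and ileum (filled squares), coloured by group; dotted lines mark 2-fold. Chac1 and Asns lie beyond the 2-fold line in both tissues and Atf5 in ileum, the chaperones form a narrow band to the right of 0, and the sensors and ERAD genes lie on both sides of 0.

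Atf4 itself was slightly higher in G181R tissue. Its signal was 29756 in G181R and 24216 in wild-type jejunum, and 30150 in G181R and 24808 in wild-type ileum, log2 differences of 0.26 and 0.36. Among the 5 transcription factors downstream of ATF4, Atf5, which takes part in mitochondrial and cytosolic stress programmes, had the largest difference. Its signal was 1683 in G181R and 848 in wild-type jejunum (1.94-fold, log2 0.95), and 1988 in G181R and 907 in wild-type ileum (2.31-fold, log2 1.21). Both G181R arrays were above both wild-type arrays for Atf5, and its other probe gave 0.95 and 0.96. It stood at percentile 99.1 of all measured genes in jejunum and 98.6 in ileum.

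The other downstream factors did not share one direction. Cebpb, a C/EBP factor that pairs with ATF4, had signals of 1584 in G181R and 1280 in wild-type jejunum, and 1599 in G181R and 1140 in wild-type ileum (log2 0.27 and 0.57). Nupr1, a small stress-induced nuclear protein, was higher by 0.49 in jejunum and 0.29 in ileum, and its dimmer probe gave 0.03 and 0.08. Ddit3, which encodes the pro-apoptotic factor CHOP, was nearly alike between genotypes. Its signal was 268 in G181R and 276 in wild-type jejunum, and 213 in G181R and 216 in wild-type ileum (log2 -0.08 and 0.06), and a second, dimmer probe gave -0.21 and -0.29. Atf3, a stress factor that represses many targets, was lower in G181R tissue: 1105 in G181R and 1365 in wild-type jejunum, and 1647 in G181R and 2555 in wild-type ileum (log2 -0.34 and -0.56).

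Among the 5 ATF4 targets that restrain growth or feed back on the response, Chac1 stood out. It encodes an enzyme that degrades glutathione and carries the CARE match shown above. Its signal was 484 in G181R and 140 in wild-type jejunum (3.38-fold, log2 1.75), and 1339 in G181R and 339 in wild-type ileum (4.16-fold, log2 2.06). These were the largest differences among the members in both tissues, and Chac1 ranked as the 38th highest of all measured genes in jejunum and the 62nd in ileum. Its 1 probe lies at chr2:119179990-119180049 in mm9, the build of the probe positions.

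The other 4 of these genes showed no such pattern. Trib3, a pseudokinase that restrains ATF4 signalling, had signals of 1582 in G181R and 1454 in wild-type jejunum, and 272 in G181R and 325 in wild-type ileum (log2 0.09 and -0.18). Ddit4, an inhibitor of the growth kinase complex mTORC1, had signals of 1339 in G181R and 2065 in wild-type jejunum, and 3012 in G181R and 2853 in wild-type ileum (log2 -0.66 and 0.16). It was thus the lowest member in jejunum and slightly higher in ileum. Sesn2, a leucine sensor that acts on the same complex, was at -0.03 in jejunum and -0.28 in ileum. Ppp1r15a, the subunit GADD34 that directs the phosphatase of eIF2, was at 0.26 in jejunum and at -0.03 in ileum, and the value in ileum turned to 0.02 when arrays were scaled to their medians.

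The genes of asparagine synthesis and tRNA charging were higher in G181R tissue in 5 of 5 cases in both jejunum and ileum. Asns, asparagine synthetase, had signals of 3165 in G181R and 1221 in wild-type jejunum (2.53-fold, log2 1.34), and 6526 in G181R and 2481 in wild-type ileum (2.78-fold, log2 1.47). Its other probe gave 1.48 and 1.62, so both probes were above 2-fold in both tissues. Asns stood at percentile 99.6 of all measured genes in jejunum and 99.1 in ileum.

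The 4 member tRNA synthetases load their amino acids onto tRNAs. Aars (alanine) was at 0.55 in jejunum and 0.71 in ileum, Wars (tryptophan) at 0.36 and 0.71, Gars (glycine) at 0.40 and 0.62, and Sars (serine) at 0.22 and 0.40. For Gars, a gene with 1 probe, the signals were 7676 in G181R and 5691 in wild-type jejunum, and 12912 in G181R and 8838 in wild-type ileum. Aars varied between probes: its 3 measured probes ran from -0.76 to 0.55 in jejunum and from -0.17 to 0.89 in ileum. Both lowest values came from probes close to background. Their signals were 6.94 in G181R and 11.46 in wild-type jejunum, and 7.63 in G181R and 9.06 in wild-type ileum. Another dim probe, at 37.81 in G181R and 37.46 in wild-type jejunum, gave -0.02 there and 0.89 in ileum. Aars therefore stays uncertain in jejunum, and its value depends on the probe in ileum as well. The mean over all its probes was -0.08 in jejunum, which takes in a probe not well above background on any array.

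**Figure D3:**
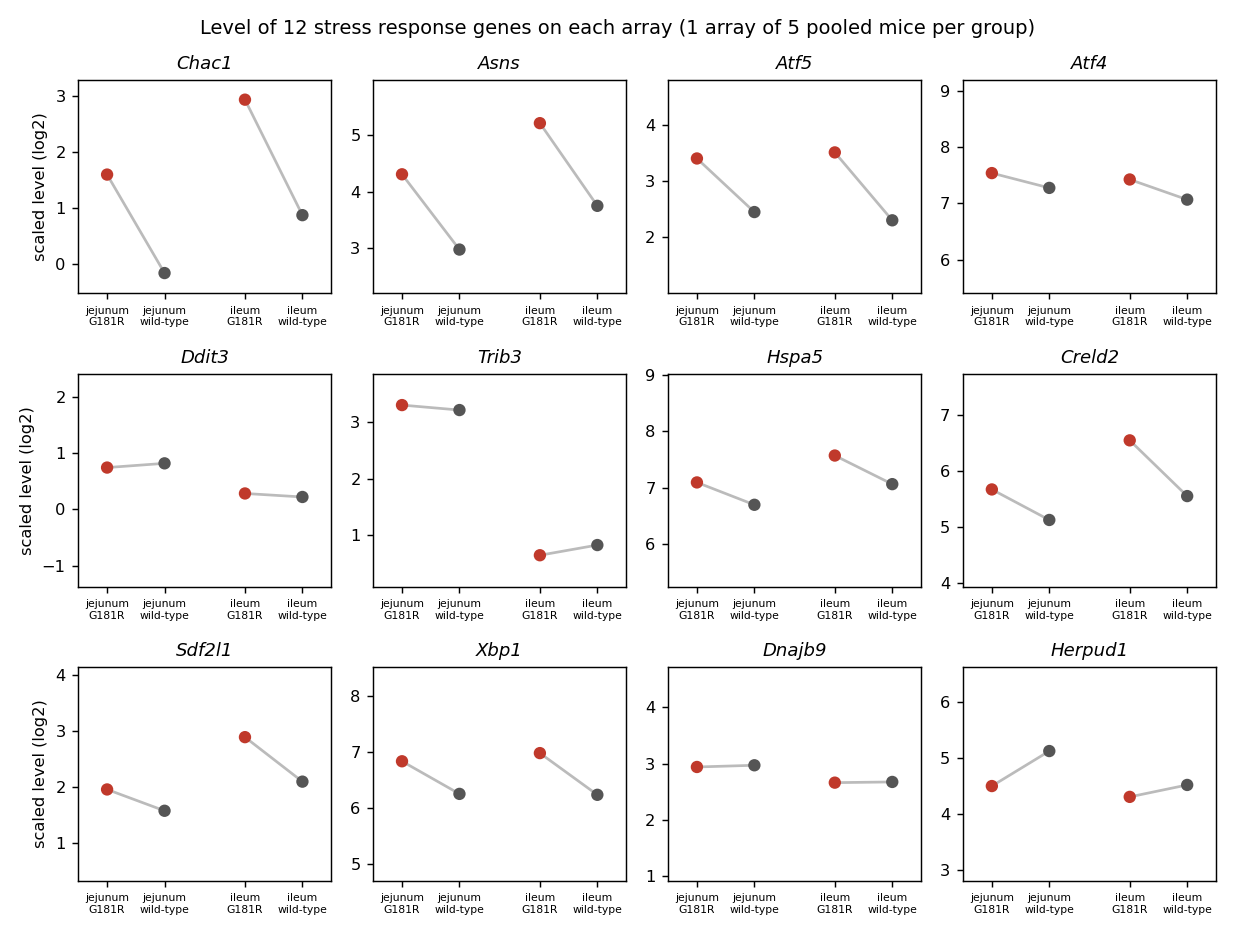
Level of 12 of the genes on each of the 4 arrays (log2 processed signal minus the array's 75th percentile), G181R in red and wild-type in grey; each point is 1 array of 5 pooled mice, lines join the genotypes of a tissue, and every panel spans the same height. The slope is steep for Chac1, Asns and Atf5, shallow for Atf4 and Hspa5, nearly flat for Ddit3 and Dnajb9, and turned the other way for Herpud1.

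Related genes outside the 41 were read from lists of the same pathways. Of 30 other genes tied to ATF4, 25 were measured in jejunum, where 14 were higher (median 0.17), with 5 past 2-fold in that direction and 1 past it in the other. In ileum 27 were measured, 19 of them higher, 4 at least 2-fold higher and 0 lower by that much (median 0.16). Mthfd2, an enzyme of mitochondrial folate metabolism, was higher by 1.64 in jejunum and 1.23 in ileum, and Psat1, of serine synthesis, by 1.47 and 1.20. Slc7a5, a carrier of large neutral amino acids, was at 1.31 in jejunum and 0.19 in ileum. Its signals were dim, 34.4 in G181R and 13.6 in wild-type jejunum. Stc2, a secreted glycoprotein, was at 1.65 in ileum and was well above background on neither jejunum array. Its ileum signals were dim as well, 28.01 in G181R and 9.41 in wild-type tissue. The wild-type value lay close to background, so the size of this difference is uncertain. Chosen after their values were seen, Slc7a1 (1.01) and Phgdh (1.04) were the others at least 2-fold higher in jejunum, Ndrg1 (-1.18) was lower there, and Shmt2 (1.02) was higher in ileum.

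The other cytosolic tRNA synthetases were nearly all higher in G181R tissue. In jejunum 15 of 16 were higher, with a median of 0.43, and in ileum all 16 were, with a median of 0.54. Yars (tyrosine) was at 0.88 in jejunum and 1.05 in ileum, Cars (cysteine) at 0.59 and 1.03, Mars (methionine) at 0.83 and 0.94, and Tars (threonine) at 0.59 and 0.93. Of 13 genes of eIF2 kinases and translation control, 11 were higher in jejunum (median 0.20) and 12 in ileum (median 0.28), with Eif2s2, the beta subunit of eIF2, at 0.33 and 0.87 and Eif2b3, a subunit of its exchange factor, at 0.80 and 0.66.

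The 4 sensors of the ER membrane differed in both directions between genotypes, with 2 higher in jejunum and 1 in ileum. Eif2ak3, the sensor kinase PERK, was at -0.33 in jejunum and -0.20 in ileum, and Ern1 at -0.18 and -0.10. The dimmer probe of Eif2ak3 gave -0.02 in jejunum and -0.34 in ileum. Ern2, the form of IRE1 found in mucosal epithelium, had signals of 2265 in G181R and 2143 in wild-type jejunum, and 4989 in G181R and 5458 in wild-type ileum (log2 0.05 and -0.05). Atf6 was at 0.25 in jejunum and 0.08 in ileum, and its dimmer probe gave -0.09 and -0.07.

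Xbp1, which lies downstream of IRE1, was higher. Its signal was 18167 in G181R and 11866 in wild-type jejunum (log2 0.58), and 22032 in G181R and 13891 in wild-type ileum (log2 0.74). Its 3 probes gave 0.57 to 0.66 in jejunum and 0.51 to 0.76 in ileum. The brightest lies at chr11:5425816-5425875 (mm9). It stood at percentile 96.6 of measured genes in jejunum and 96.0 in ileum, short of 2-fold in both.

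The ER chaperones and folding enzymes were higher in G181R tissue in 13 of 14 cases in each tissue, and none reached 2-fold. Their median was 0.36 in jejunum, with values from -0.03 to 0.54, and 0.56 in ileum, with values from -0.01 to 0.99. The exception in both was Dnajb9, a co-chaperone that restrains IRE1. Its signal was 1226 in G181R and 1223 in wild-type jejunum, and 1107 in G181R and 1179 in wild-type ileum. After scaling, that is -0.03 and -0.01, and the difference in ileum turned to 0.04 with scaling to array medians. Its dimmer probe gave -0.37 in jejunum and -0.003 in ileum.

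Hspa5, the ER chaperone BiP that also holds the sensors inactive, is a gene with the ERSE match shown above. Its signal was 21780 in G181R and 16146 in wild-type jejunum, and 33287 in G181R and 24673 in wild-type ileum (log2 0.40 and 0.51). Its 3 probes ran from 0.24 to 0.40 in jejunum and from 0.51 to 0.58 in ileum. Hsp90b1, the ER form of HSP90, had signals of 15187 in G181R and 12416 in wild-type jejunum, and 25630 in G181R and 19190 in wild-type ileum (log2 0.26 and 0.50).

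Besides Dnajb9, the list holds 4 partners of Hspa5, all higher in both tissues. Hyou1, which exchanges the nucleotide of Hspa5, was at 0.53 in jejunum and 0.75 in ileum. Its 4 probes, all dim, ran from 0.52 to 0.89 in jejunum and from 0.75 to 0.91 in ileum. The brightest had signals of 83.3 in G181R and 56.5 in wild-type jejunum, and 124.4 in G181R and 78.1 in wild-type ileum. Sdf2l1, which acts with Hspa5 and Dnajb11, had signals of 621 in G181R and 466 in wild-type jejunum, and 1299 in G181R and 791 in wild-type ileum (log2 0.38 and 0.79). Dnajb11, an ER co-chaperone, was at 0.35 in jejunum and 0.60 in ileum, and Dnajc3, a co-chaperone that also restrains eIF2 kinases, at 0.21 and 0.23.

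The lectin chaperones and disulfide isomerases, which fold glycoproteins and form their disulfide bonds, were all 5 higher in both tissues. Calr (calreticulin) was at 0.37 in jejunum and 0.46 in ileum, and Canx (calnexin) at 0.27 and 0.23. The isomerases Pdia3, Pdia4 and Pdia6 were at 0.18, 0.48 and 0.36 in jejunum and at 0.36, 0.64 and 0.62 in ileum. Pdia6, with 1 probe, had signals of 12775 in G181R and 9750 in wild-type jejunum, and 27807 in G181R and 19064 in wild-type ileum.

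Of the 2 secreted ER stress proteins, Creld2 had the larger difference. Its signals were 8164 in G181R and 5472 in wild-type jejunum (log2 0.54), and 16412 in G181R and 8702 in wild-type ileum (1.99-fold, log2 0.99). At the brightest probes it was the highest chaperone or folding gene in both tissues, and its 1 probe lies at chr15:88656997-88657056 (mm9). In jejunum Hyou1 was close, at 0.53, and another probe of Hyou1 gave 0.89, so this rank depends on the probe. That other probe was dim, with signals of 34.9 in G181R and 18.4 in wild-type jejunum. Manf was at 0.37 in jejunum and 0.65 in ileum.

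The ERAD and translocation genes did not share the direction of the chaperones. Of 6, 3 were higher in jejunum and 2 in ileum, with medians of -0.02 and -0.04. Herpud1, which organises the ubiquitin ligase that retrieves misfolded proteins, was lower: its signal was 3602 in G181R and 5424 in wild-type jejunum, and 3455 in G181R and 4225 in wild-type ileum (log2 -0.62 and -0.21). Its other probe gave -0.52 and -0.07. Herpud1 carries a CARE match, as Chac1 does, and the 2 genes differed in opposite directions.

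The other 5 ERAD and translocation genes ran from -0.21 to 0.37. Edem1, which marks glycoproteins for disposal, was at -0.08 in jejunum and -0.21 in ileum. Sel1l and Syvn1, the core of the HRD1 ubiquitin ligase, were at -0.08 and 0.12 in jejunum and at -0.05 and -0.04 in ileum, and both ileum values turned above 0 with scaling to array medians. The dimmer probes of Sel1l gave -0.09 and -0.30 in jejunum and 0.41 and 0.09 in ileum. Derl3, a channel component prominent in secretory cells, was at 0.19 in jejunum and 0.26 in ileum, from signals of 33.5 in G181R and 28.8 in wild-type jejunum, and 83.4 in G181R and 73.5 in wild-type ileum. Sec61b, a subunit of the translocon, was at 0.03 in jejunum and 0.37 in ileum, and its other probe gave 0.19 and 0.49.

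Larger lists of ER genes outside the 41 were also mostly higher in G181R tissue. Of 22 other folding genes, 16 were higher in jejunum (median 0.10) and 18 in ileum (median 0.26), where the prolyl isomerase Fkbp11 was at 1.11. Of 28 other ERAD and translocation genes, 22 were higher in jejunum (median 0.13) and 25 in ileum (median 0.35), with Ssr1, of the translocon-associated complex, at 0.22 in jejunum and 0.81 in ileum. Of 16 other regulators and ER traffic genes, 10 were higher in jejunum (median 0.06) and 12 in ileum (median 0.24). For comparison, cytosolic heat shock genes had 11 of 16 higher in each tissue (medians 0.03 and 0.11), with Hspb1 lowest at -0.37 and -1.09. Mitochondrial chaperones and proteases had 9 of 10 higher in jejunum (median 0.09) and all 10 in ileum (median 0.31).

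Set side by side, ATF4 targets and ER chaperones differed more in their spread than in their centre. The median over 15 targets was 0.27 in jejunum and 0.40 in ileum, and that over 14 chaperones was 0.36 and 0.56, so the median of the targets was lower by 0.09 and 0.15. With 11 of 15 targets and 13 of 14 chaperones higher in each tissue, the targets ran from -0.66 to 1.75 in jejunum and from -0.56 to 2.06 in ileum, wider than the chaperones. The SD over genes was 0.61 for targets and 0.15 for chaperones in jejunum, and 0.70 for targets and 0.26 for chaperones in ileum. All members at least 2-fold higher in jejunum or ileum were ATF4 targets. Without the 4 tRNA synthetases, the median of the targets was 0.26 in jejunum and 0.16 in ileum, and the 4 synthetases had medians of 0.38 and 0.67. In the mean of all probes of a gene, dim probes included, the median of the targets in ileum was 0.18.

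Grouping by promoter letters gave the following. The 7 ATF4 targets with a CARE match had a median of 0.49 in jejunum, with 6 higher, and of 0.62 in ileum, with 5 higher. The 7 targets with a window and no match had medians of 0.22, with 4 higher, and 0.16, with 5 higher. Targets with the match still ran from -0.34 to 1.75 in jejunum, since Atf3 carries it as well as Chac1, and Atf5 has no match. The 7 chaperones with ERSE had medians of 0.36 in jejunum and 0.50 in ileum, all 7 higher, and the 5 without had 0.35 and 0.60, with 4 higher in each.

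Most members went the same way in both tissues. Of the 41, 27 were higher in both jejunum and ileum and 8 lower in both (Atf3, Sesn2, Ern1, Eif2ak3, Dnajb9, Herpud1, Edem1 and Sel1l), although Dnajb9 and Sel1l turned above 0 in ileum with scaling to array medians. The dimmer probes of Sel1l were above 0 in ileum as well. Of the 27, 24 had the larger difference in ileum, by a median of 0.18. Among chaperones that held for 12 of 13 and among ATF4 targets for 8 of 9. The gap was largest for Creld2 (0.45). The genotype differences of all measured genes were also wider in ileum, with a 90th percentile of 0.49, against 0.34 in jejunum. The share of all measured genes that went the same way in both tissues was not computed, so these counts of members have no background.

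**Figure D4:**
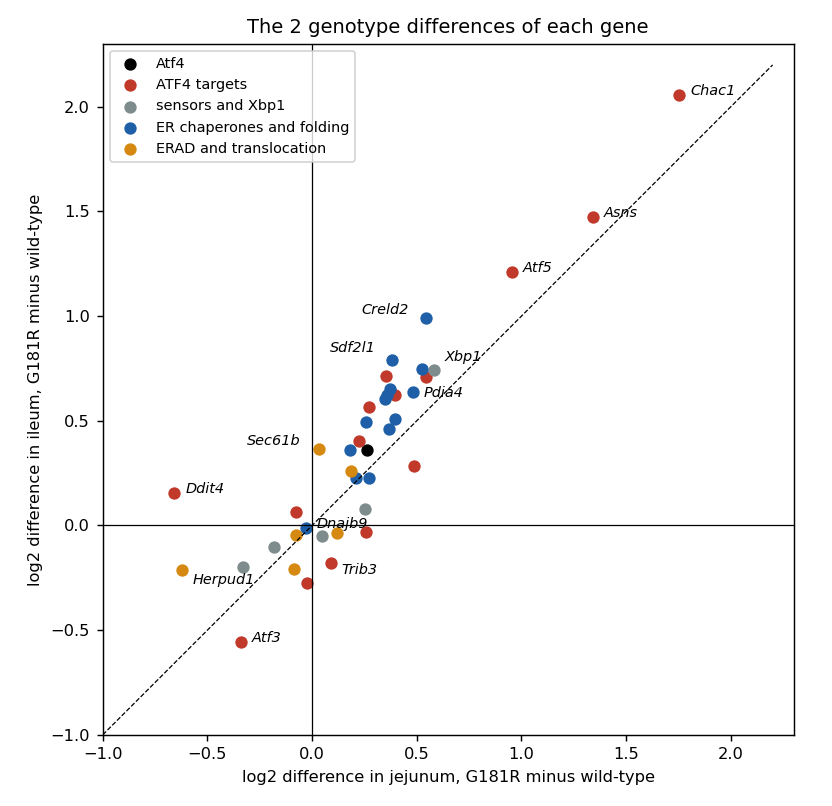
Log2 difference, G181R minus wild-type, in ileum (vertical) against jejunum (horizontal) for the 41 genes, coloured by group; the dashed line marks equal differences. Most genes of the upper right part lie above the line, among them 12 of the 13 chaperones higher in both, and Ddit4 (-0.66 in jejunum, 0.16 in ileum) lies farthest from it on the left.

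Markers of secretory and immune cells, which use the same ER genes heavily, also differed between the pools. The 7 Paneth cell markers were all higher in G181R jejunum (median 0.65), and 4 of 7 in G181R ileum (median 0.03). Their summed scaled signal was 616 in G181R and 483 in wild-type jejunum, and 1699 in G181R and 1634 in wild-type ileum. Plasma cell markers, which include Derl3 and Fkbp11, had all 7 measured genes higher in jejunum (median 0.11) and 7 of 8 in ileum (median 0.55). They summed to 12.2 in G181R and 11.0 in wild-type jejunum, and to 21.9 in G181R and 19.4 in wild-type ileum, and Tnfrsf17 was well above background on no array. Irf4 was not counted in jejunum. Its signal there was well above background in wild-type (9.04) but not in G181R tissue (4.67), the opposite direction to the genes counted. Goblet cell markers had medians of 0.02 in jejunum and -0.13 in ileum, with summed signals of 2258 in G181R and 2244 in wild-type jejunum, and 2542 in G181R and 2851 in wild-type ileum.

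Other markers differed as well. Of 8 exocrine pancreas genes, 4 were well above background on no array, among them Prss1, Cpa1 and Pnlip. Cell cycle genes were higher in 11 of 12 cases in jejunum (median 0.42) and in all 12 in ileum (median 0.56), with summed signals of 74.8 in G181R and 62.6 in wild-type jejunum, and 144.9 in G181R and 102.2 in wild-type ileum. Smooth muscle markers had a median of 0.14 in jejunum and -2.53 in ileum, where 8 of 10 were at least 2-fold lower in G181R. Fibroblast markers were lower in 7 of 7 cases in both tissues (medians -0.26 and -0.65), with summed signals of 14.6 in G181R and 17.1 in wild-type jejunum, and 10.7 in G181R and 16.2 in wild-type ileum. Macrophage and neutrophil markers were higher in 4 of 6 measured cases in jejunum (median 0.19) and 5 of 6 in ileum (median 0.28). The neutrophil genes S100a8 and S100a9, chosen after their values were seen, were well above background only on the G181R ileum array, with signals of 24.4 and 96.8. B cell markers had medians of -0.72 in jejunum (6 measured) and 0.68 in ileum (7 measured). Enterocyte markers were lower in 9 of 11 cases in each tissue, with a median of -0.16 in both. The part of these cell markers in the differences of the stress genes was not tested.

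Between tissues, several stress genes differed far more than between genotypes. Nupr1 was higher in ileum, with signals of 3653 in G181R ileum and 434 in G181R jejunum (log2 2.94), and 3163 in wild-type ileum and 302 in wild-type jejunum (log2 3.14). Trib3 was lower in ileum, with 272 in G181R ileum and 1582 in G181R jejunum (log2 -2.68), and 325 in wild-type ileum and 1454 in wild-type jejunum (log2 -2.41). In G181R mice, 7 members were at least 2-fold higher in ileum and 1 lower, and in wild-type mice 6 were higher and 1 lower. The backgrounds were 7.29% of genes higher and 8.73% lower in G181R mice, and 7.4% higher and 9.12% lower in wild-type mice.

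The others at least 2-fold higher in ileum were mixed in function. Ppp1r15a was at 1.24 in G181R and 1.53 in wild-type mice, Wars at 1.40 and 1.04, Chac1 at 1.33 and 1.03, and Ern2, which goblet cells express strongly, at 1.01 and 1.11. Derl3 was at 1.18 and 1.11, but from dim signals, and Ddit4 passed 2-fold in G181R mice alone, at 1.04 against 0.22 in wild-type mice, a difference that was not tested. Chaperones were higher in ileum in 13 of 14 cases in both genotypes, with medians of 0.59 in G181R and 0.43 in wild-type mice, where 47.9% of all measured genes in G181R and 46.6% in wild-type mice were higher in ileum. The largest were Pdia6 and Pdia4 (0.99 and 0.98 in G181R, 0.72 and 0.83 in wild-type mice). Atf4 was slightly lower in ileum, at -0.11 in G181R and -0.21 in wild-type mice.

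**Figure D5:**
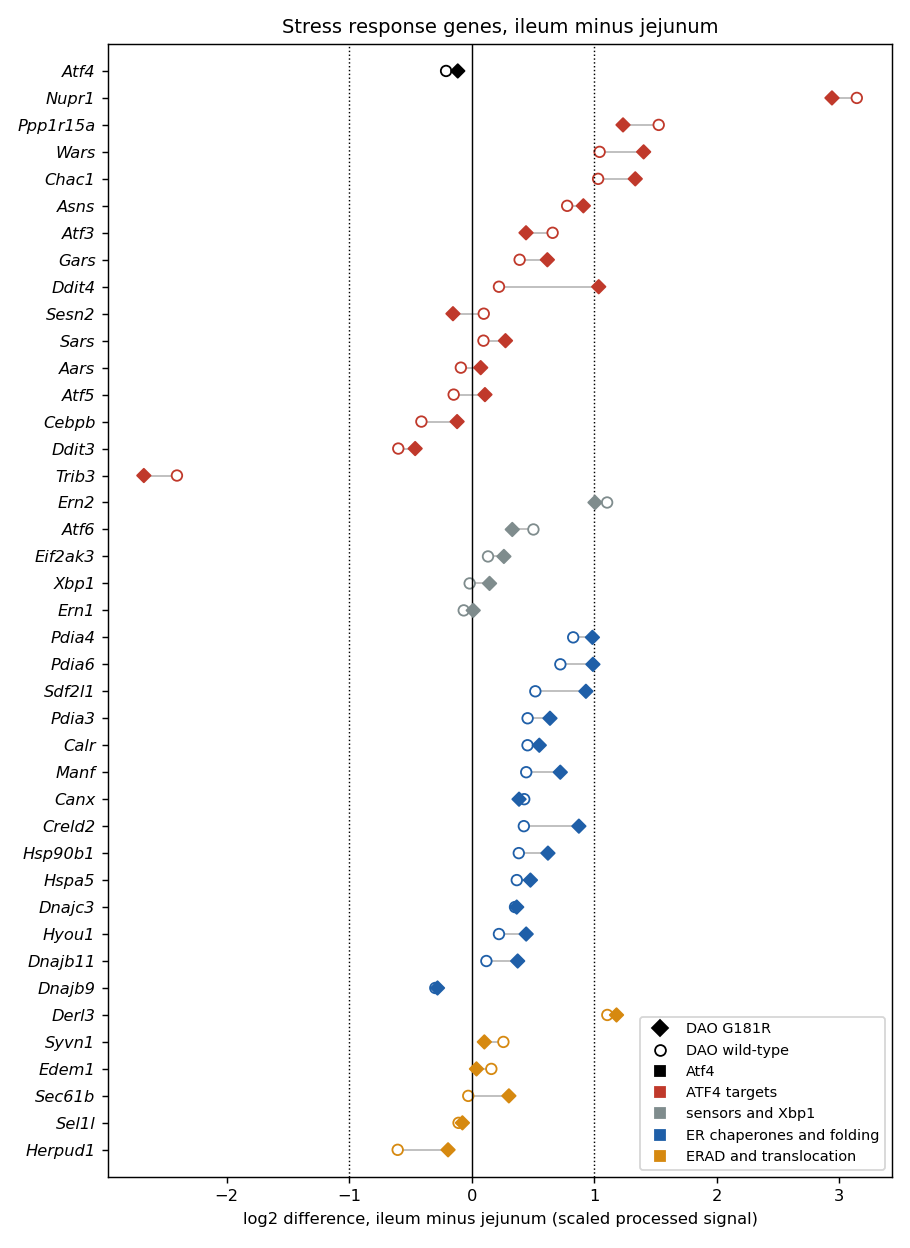
Log2 difference in scaled processed signal, ileum minus jejunum, of each of the 41 genes in G181R (filled diamonds) and wild-type mice (open circles), coloured by group; dotted lines mark 2-fold. Nupr1 lies far to the right and Trib3 far to the left in both genotypes, and the chaperones lie between -0.30 and 0.99.

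Secretory cell markers were higher in ileum too. Paneth cell markers had medians of 2.54 in G181R and 3.35 in wild-type mice, plasma cell markers 1.52 and 1.01, and goblet cell markers 0.57 and 0.80. The part of all these cell markers in the tissue differences of the chaperones, Ern2 and Derl3 was not tested.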

How the data were processed

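Total RNA was measured on 1-colour (Cy3) Agilent arrays, 1 per group. Per the file headers, the intensity values were made with Agilent Feature Extraction 11.5.1.1 by background subtraction and detrending, each array on its own. Other columns hold flags of 0 or 1 for signal well above background, saturation (0 spots) and outliers. The deposited table holds log2 values that, for 99.96% of probes without a fill value, equalled the log2 intensity minus a constant per array (tolerance 0.01). Its column medians are -3.08, -3.08, -3.13 and -3.09, and how the constant was chosen is not given in the sources used here. In it 2442 probes hold a fill value, among them the brightest probes of Hspa5, Hsp90b1 and Pdia6, so it served only as an alternative.

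Non-outlier spots of a probe were averaged on the log2 scale, and each value was set relative to the 75th percentile of non-control probes on its array (Python 3.11.15, pandas 2.3.3, numpy 2.4.6). A gene was read at the probe with the highest mean signal, and it counted as measured where it was well above background on both arrays compared and as different from 2-fold. Of the 77 member probes, 62 carried an accession of the RefSeq gene table (GRCm38.p6), all 62 with the array's symbol. The steps were tested on simulated data. Alternatives were median scaling, quantile normalization, normexp background correction (limma 3.58.1 in R 4.3.3, offset 50), the mean of all probes, other filters, the deposited table and a 1.5-fold threshold. The normexp values were also quantile normalized.

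All 41 members are named, with up to 4 genes of any other list, those with the largest genotype difference. Genes named beyond that rule are said to be so, or are cell markers at background (Tnfrsf17, Prss1, Cpa1 and Pnlip), chosen after their values were seen. The members and lists were chosen with earlier results of these data known. Probe positions are those of mm9, and exons or UTRs at the probes were not looked up. The number of arrays limits the precision. Promoter stretches are printed for a choice of members, and the others are not reported here.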

Additional observations from a re-analysis of the deposited data

Results flagged for a closer look

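In 6 of the 41 genes the genotype difference went one way in jejunum and the other way in ileum, on the 1 array of each group. The difference between tissues was not tested. The share of all measured genes that changed direction in this way was not computed, so the count has no background. Ddit4 was at -0.66 in jejunum and 0.16 in ileum, a gap of 0.81. Ppp1r15a was at 0.26 in jejunum and -0.03 in ileum, a gap of -0.29, and Trib3 at 0.09 and -0.18, a gap of -0.27. Syvn1 was at 0.12 in jejunum and -0.04 in ileum, a gap of -0.16. Ddit3 was at -0.08 in jejunum and 0.06 in ileum, a gap of 0.14, and its second probe was below 0 in both tissues. Ern2 was at 0.05 in jejunum and -0.05 in ileum, a gap of -0.10. The ileum values of Ppp1r15a and Syvn1 and both values of Ern2 were within 1 spot SD of 0, and those of Ppp1r15a and Syvn1 turned above 0 with scaling to array medians.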

How the results depend on the processing

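Chac1 and Asns in both tissues and Atf5 in ileum stayed at least 2-fold higher in G181R under every alternative that kept the 2-fold threshold. At 1.5-fold, 14 members were higher in ileum in place of 3, and 2 were lower in jejunum in place of 0 (Herpud1 and Ddit4), beside 6.81% and 4.09% of all measured genes. Scaling to array medians raised the count of members at least 2-fold higher in ileum to 4, by Creld2. The median of the ER chaperones in ileum was 0.47 with normexp in place of 0.56. That of the ATF4 targets in ileum was 0.18 in the mean of all probes in place of 0.40. This mean takes in dim probes. The second probe of Sars was not well above background in ileum (signals 1.37 in G181R and 1.59 in wild-type), and that of Nupr1 was at 21.4 in both. These 2 probes gave -0.14 and 0.08 in ileum, against 0.40 and 0.29 at the brightest probes. Their part in the lower median was not tested. Between tissues, Derl3 was below 2-fold with normexp (0.56 in G181R and 0.45 in wild-type mice), as was Chac1 in wild-type mice (0.82). In the mean of all probes, Ern2 in G181R mice (0.86) and Wars in wild-type mice (0.996) were so too. Counts over all genes, here always of those at least 2-fold higher or lower, moved more. With normexp, 61 genes were higher and 33 lower by that much in jejunum, and 173 higher and 216 lower in ileum. With the settings used, these counts were 162, 159, 431 and 689. Of the genes past 2-fold in jejunum, 64.9% were higher with normexp, in place of 50.5%. Between tissues, normexp gave 790 higher and 1019 lower in G181R and 792 and 1063 in wild-type mice, in place of 1566, 1875, 1535 and 1892. Without the background filter, the counts were 1165 and 1650 in jejunum, 1507 and 2001 in ileum, and 2931, 3937, 2944 and 4037 between tissues, and the median of all genes lay at -0.10 in jejunum, -0.12 in ileum and -0.27 between tissues in wild-type mice. No paired analysis was possible because each group has 1 array.

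With 1 pool per group, no difference here has an error between mice, and the spot SD covers 1 hybridisation. Small differences, such as those of the chaperones, therefore cannot be set against the spread between animals. Values of dim probes, such as that of Derl3, depend on the background step. The normexp offset of 50 by itself shrinks differences at such signals. The lower Derl3 values with normexp therefore do not measure a limit of these data.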
